A study of Mus musculus with 10 samples.

Results

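The corticotropin-releasing hormone system was read in single cells of the mouse paraventricular hypothalamus (PVH). It was taken as 7 listed genes of the 48397 in the count table: the ligands *Crh*, *Ucn*, *Ucn2* and *Ucn3*, the receptors *Crhr1* and *Crhr2*, and the binding protein *Crhbp*. All 7 symbols were found, and 483 of 706 cells had no unique molecular identifier (UMI, a tag that marks 1 captured transcript) of any of them. The cells came from 10 plates of the same condition, 4 with names that start with Q, 2 with AL and 4 with JM, and the plate was the replicate. The mice were male offspring of *Agrp-IRES-Cre* and *Ai9* parents, older than 7 weeks, in which the Cre line drives tdTomato in neurons that express *Agrp*. The labels call the picked cells labelled neurons, while the methods used the fluorescent axons only to find the border of the PVH, and *Agrp* itself was detected in 12 of 706 cells. No treatment or genotype was compared, so the levels below were set against each other across the authors' 15 cell clusters, of which clusters 5, 6 and 11 (42 cells) are non-PVH and the other 12 hold 664 cells.

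CRH is the peptide with which parvocellular PVH neurons start the endocrine stress response. Released at the median eminence, it acts on CRHR1 of pituitary corticotrophs, and the glucocorticoids that follow feed back on the same neurons through the glucocorticoid receptor (*Nr3c1*). The urocortins (*Ucn*, *Ucn2*, *Ucn3*) are related peptides, of which urocortins 2 and 3 prefer CRHR2, and CRHBP is a secreted protein that binds CRH and urocortin and lowers the free ligand.

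On GRCm38, *Crh* is at chr3:19693401-19695396 (minus strand), *Ucn* at chr5:31138063-31138829 (minus), *Ucn2* at chr9:108986010-108987164 (plus) and *Ucn3* at chr13:3940688-3945349 (minus). *Crhr1* is at chr11:104132855-104175523 (plus), *Crhr2* at chr6:55090049-55133016 (minus) and *Crhbp* at chr13:95431371-95444924 (minus). No other annotated gene overlapped any of the 7.

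Cells held 50646 to 1078101 UMIs, with a median of 128672, and the median was 235270 on Q plates against 97548 on AL and 80647 on JM plates. The neuronal marker *Snap25* was detected in 694 of 706 cells and the PVH marker *Sim1* in 400, while each of 6 glial markers was found in 2 to 6 cells. Expression is given as CPM, the UMIs of a gene scaled to a fixed total over all genes, summed per plate wherever a cluster had at least 3 cells on that plate. The clusters were drawn by the authors from the same cells and genes, so the p-values between clusters describe how well plates agree and are not independent evidence of a cell type.

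*Crh* was the only ligand found in many cells. It was detected in 157 of 706 cells with 16186 UMIs in all. Clusters 10, 13 and 14 carried 97.9% of these UMIs in 135 cells. The other PVH clusters carried 333 UMIs in 37 of 529 cells.

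In cluster 10, *Crh* was detected in 53 of 62 cells (85.5%, exact 95% interval 74.2% to 93.1%). Its plate level ran from 707 to 2914 CPM with a median of 1517 (mean 1743 ± 805, SD, n = 7 plates). The other PVH cells of these plates had 51.7 ± 39.0 CPM (SD, n = 7), with 122 CPM on the highest plate, and the 2 ranges did not overlap. The edgeR log2 fold change was 5.19 (SE 0.53, quasi-likelihood test, adjusted p = 0.00386), higher in 7 of 7 plates.

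In cluster 14, *Crh* was detected in 57 of 57 cells, at a lower level. Its plate level ran from 230 to 935 CPM with a median of 539 (mean 522 ± 236, SD, n = 8 plates). The other PVH cells of the same plates had 123 ± 106 CPM (SD, n = 8). The plate ranges overlapped, since the other cells reached 349 CPM on 1 plate, but within plates cluster 14 was higher on 8 of 8 (edgeR log2 fold change 2.33, SE 0.35, adjusted p = 9.68e-04). With cells thinned to equal UMIs the fold change was 2.82 and no longer passed (edgeR adjusted p = 0.212).

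Cluster 13 was uneven. *Crh* was detected in 7 of 16 cells (43.8%, interval 19.8% to 70.1%), and the 3 plates with enough cells had 1312, 81.7 and 0 CPM. Its level did not differ detectably from the other PVH cells (edgeR log2 fold change 0.53, SE 2.26, adjusted p = 0.977), which included clusters 10 and 14. Outside clusters 10, 13 and 14, *Crh* was detected in 6.99% of PVH-cluster cells. Plates JM5, JM7 and JM8, with 2 cells of cluster 13 each, were left out of this fit, and a cell on JM7 held 3858 CPM. All 16 cells lay on AL and JM plates. The 9 cells without *Crh* had a median of 63019 UMIs and the 7 with it 96032, and the part of depth in this share was not tested.

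**Figure D1:**
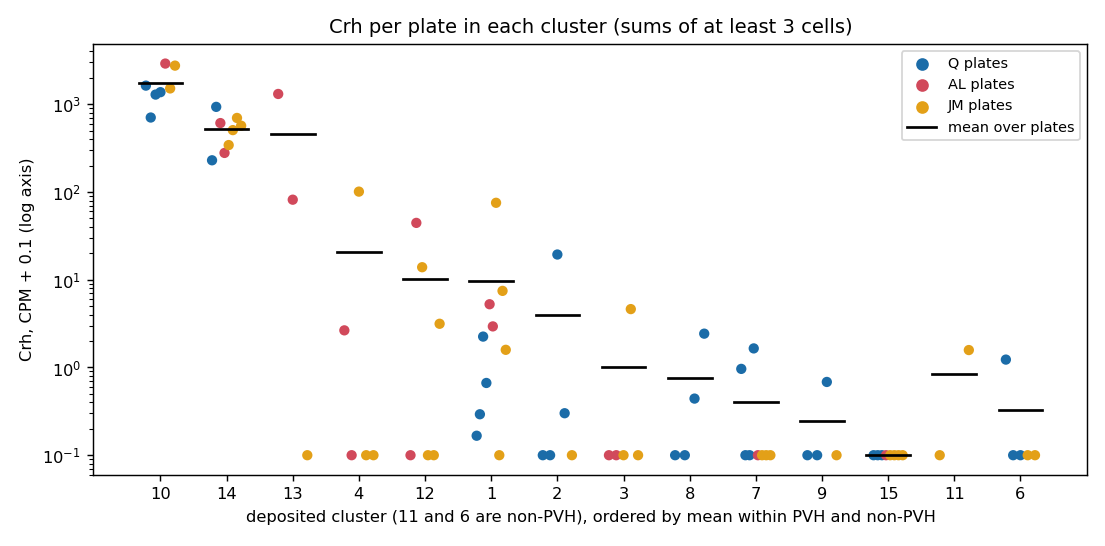
*Crh* per plate (points, coloured by plate-name prefix) in each cluster with sums of at least 3 cells, as CPM + 0.1 on a log axis, with the mean over plates as a bar. Clusters 10 and 14 sit above 200 CPM on every plate, cluster 13 spreads from 0 to 1312 CPM, and cluster 15 is at 0 on all 8 plates.

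Across the 12 PVH clusters only *Crh* passed the filter on low counts everywhere. It was called in 9 of 12 clusters, higher in 2 and lower in 7. For a cluster with little *Crh*, the other PVH cells included clusters 10, 13 and 14, with 97.9% of its UMIs. Passing the filter and being called lower there were largely set in advance by this comparison. *Crhbp* was tested in clusters 8 and 9 without a call, and the other 5 members passed the filter in no cluster. Of all gene tests in these 12 fits, 1.05% were called higher and 2.24% lower.

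The order of mean levels below the 3 *Crh* clusters was cluster 4 (20.8 ± 45.1 CPM, SD, n = 5 plates), cluster 12 (10.2 ± 17.6, n = 6) and cluster 1 (9.52 ± 23.2, n = 10). Clusters 2 (3.90 ± 8.60, n = 5) and 3 (0.906 ± 2.03, n = 5) followed, then 8, 7 and 9 at means of 0.146 to 0.669 CPM. Cluster 15 had 0 UMIs in 60 cells, a limit of 5.0% of cells at this depth. From cluster 4 down to cluster 9 each SD exceeded its mean, so neighbours in this order did not differ beyond their spread. *Crh* was called lower in clusters 1, 2, 3, 7, 8, 9 and 15, for example by a log2 fold change of -6.43 (SE 0.85, edgeR adjusted p = 5.86e-04) in cluster 1, lower in 10 of 10 plates. In cluster 4 (-4.74, SE 1.10, edgeR adjusted p = 0.0928) and cluster 12 (-4.59, SE 1.05, edgeR adjusted p = 0.0754) it was not called. In cluster 2 the call was lost without plate JM8 (-6.69, edgeR adjusted p = 0.153) and after thinning (-5.29, edgeR adjusted p = 0.0888). Without plate JM5 cluster 4 was called lower (-8.27, edgeR adjusted p = 3.94e-07), and without plate AL6 so was cluster 12 (-6.04, edgeR adjusted p = 8.27e-05).

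Single cells outside the *Crh* clusters reached the level of cells within them. Of the 37 such PVH cells with *Crh*, 11 had at least 3 UMIs and 5 had 100 CPM or more, 2 in cluster 1 and 1 each in clusters 2, 4 and 12. The highest held 587 CPM in cluster 4, 468 in cluster 1 and 325 in cluster 2. These 3 cells carried 96.0%, 55.1% and 95.9% of the *Crh* UMIs of their clusters. Control wells were located here from the counts, as 4 wells per plate in a column without kept cells. In these 40 wells, with a median of 170 UMIs, *Crh* had 1 UMI in all. The other 40 wells of the control columns held a median of 84530 UMIs. Among them *Crh* had 1 UMI in each of 3 wells, at most 5.60 CPM.

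Within the *Crh* clusters the cells differed widely. In cluster 10, 37 of 62 cells had 1000 CPM or more, 12 had 100 to 1000, 4 had less and 9 had none. The cell median was 1317 CPM and the highest cell had 6919. In cluster 14 the bulk was a step lower, with 36 of 57 cells between 100 and 1000 CPM, 10 above that range, 11 below it and a median of 335 CPM. In cluster 13, 3 of 16 cells had 1000 CPM or more and 9 had none. The 9 cells of cluster 10 without *Crh* came from 5 plates and were not much shallower than the rest (median 96112 against 108442 UMIs).

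**Figure D2:**
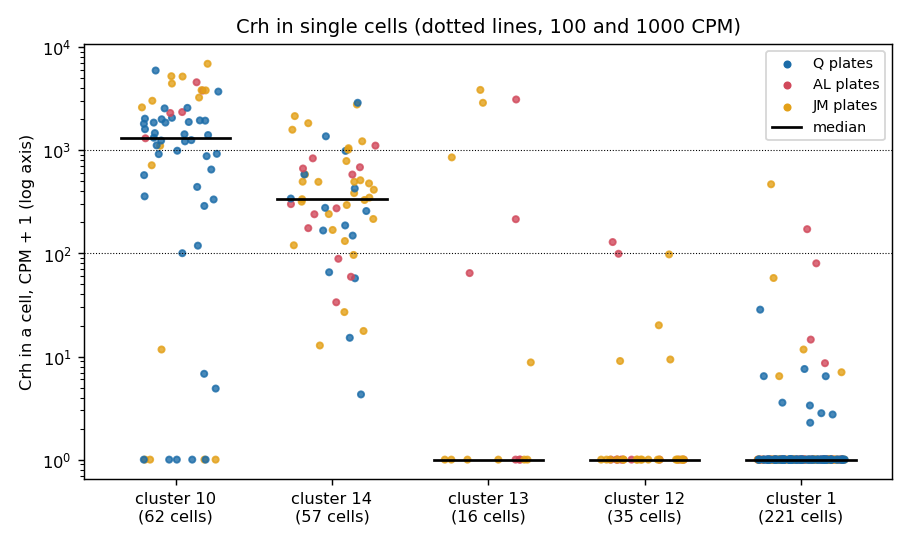
*Crh* in single cells of clusters 10, 14, 13, 12 and 1, as CPM + 1 on a log axis, coloured by plate-name prefix, with the median as a bar and dotted lines at 100 and 1000 CPM. Most cells of cluster 10 lie above 1000 CPM, most of cluster 14 between the lines, and cluster 13 holds both high cells and cells at 0.

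Cluster 10 had more *Crh* than cluster 14 on all 5 plates that held both, by 356 to 2303 CPM. An exact two-sided permutation test over 5 plates cannot go below p = 0.0625, which it reached. In the fit of all PVH clusters together the log2 difference was 2.52 (SE 0.77, edgeR adjusted p = 0.0470), in a comparison that called 1.80% of 13082 genes higher and 2.57% lower. This call sat at the threshold and was lost in 16 of 19 alternatives, with log2 differences from 1.74 to 2.99. Cluster 10 against cluster 13 gave 3.60 (SE 1.28, edgeR adjusted p = 0.225) and cluster 14 against cluster 13 gave 1.07 (SE 1.15, edgeR adjusted p = 0.830), so neither pair was told apart. Those comparisons called 0.344% of genes higher and 0.260% lower, and 0.245% higher and 0.298% lower.

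The level in cluster 10 was 1252 ± 391 CPM on Q plates (SD, n = 4) and 2397 ± 766 on AL and JM plates (SD, n = 3), an exact two-sided permutation p of 0.0571 where 0.0286 is the smallest possible. In cluster 14 these were 582 ± 499 (n = 2) and 502 ± 161 (n = 6; exact permutation p = 0.786). The fold change of cluster 10 over the other PVH cells was 5.61 on Q plates alone and 4.72 on AL and JM plates alone, in separate fits. In 1 fit of all plates with an interaction term, the difference was 0.97 (SE 0.88, edgeR adjusted p = 1). The share of PVH-cluster cells with *Crh* was 22% ± 7.25 on Q plates (SD, n = 4) and 24.7% ± 9.84 on the others (SD, n = 6; exact permutation p = 0.643). None of the 7 members differed between these plates after adjustment over the 7, and at an unadjusted exact p under 0.05 the count was also 0. After thinning to equal UMIs, *Crhr1* was in 1.71% ± 1.79 of cells on Q plates (SD, n = 4) and 4.18% ± 1.01 on the others (SD, n = 6; exact permutation p = 0.0238, adjusted p = 0.167). Without plate Q8, *Crhbp* had an exact permutation p of 0.0357 (adjusted p = 0.250).

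The urocortin genes were rarely detected. *Ucn* was detected in 2 cells, with 9 UMIs in a cell of cluster 1 and 3 in a cell of cluster 13. *Ucn2* was detected in 1 cell of cluster 1, with 8 UMIs. *Ucn3* was detected in 7 cells on 5 plates, and was high in few of them. A cell of cluster 15 held 321 UMIs (4733 CPM), a cell of cluster 14 held 105 (498 CPM), a cell of cluster 8 held 58 (392 CPM) and another of cluster 15 held 30 (253 CPM). The remaining 3 cells had 1 UMI each. No cell of cluster 10 held a urocortin gene (0 of 62, up to 4.84% for each).

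*Crhr1*, the receptor with high affinity for CRH, was thinly spread and mostly in cluster 1. It was detected in 29 of 706 cells with 151 UMIs, of which 21 cells and 122 UMIs (80.8%) were in cluster 1. There 9.50% of 221 cells held it (interval 5.98% to 14.2%), against 1.58% of the other 443 PVH-cluster cells, and the cluster 1 share was higher on 8 of 10 plates and lower on 1. After thinning to equal UMIs the shares were 6.48% and 0.781%. The plate level in cluster 1 ran from 0 to 11.1 CPM with a median of 3.64, and cells with the gene held 1.67 to 83.7 CPM. No cell of cluster 10 held *Crhr1* (0 of 62, up to 4.84%), and 2 of 57 cells of cluster 14 did.

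*Crhr2*, which binds the urocortins, was concentrated in cluster 9. It was detected in 10 of its 25 cells (40.0%, interval 21.1% to 61.3%) against 10 of the other 639 PVH-cluster cells (1.56%), and the share was higher on 4 of 4 plates. The plates held 148, 29.2, 9.21 and 1.81 CPM in cluster 9. Of its 271 UMIs there, 179 were in a single cell, and the share after thinning was 34.8%. Cluster 1 had *Crhr2* in 6 of 221 cells, and clusters 10 and 14 had it in 0 of 62 and 0 of 57 cells (up to 4.84% and 5.26%).

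**Figure D3:**
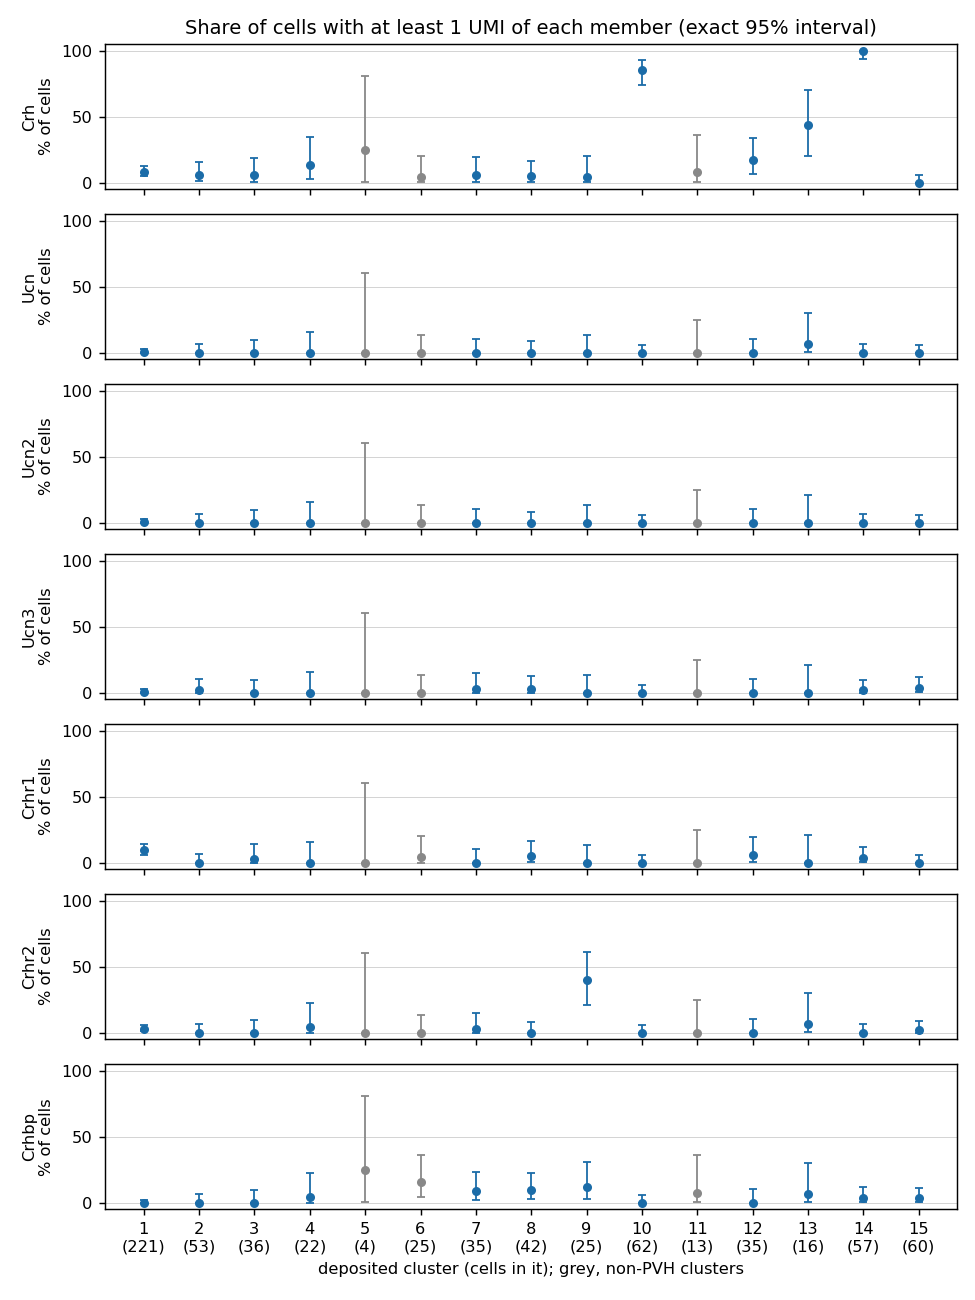
Share of cells with at least 1 UMI of each member in each cluster, with exact 95% intervals that cover counting error only, and non-PVH clusters in grey. *Crh* stands out in clusters 10, 13 and 14 and *Crhr2* in cluster 9 at 40.0%, while *Ucn* and *Ucn2* were found in at most 1 cell of any cluster.

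*Crhbp* was more frequent outside the PVH clusters and absent from the largest PVH cluster. It was detected in 6 of 42 non-PVH cells (14.3%, interval 5.43% to 28.5%) and in 16 of 664 PVH-cluster cells (2.41%, interval 1.38% to 3.88%). In cluster 6, whose cells held the GABAergic marker *Gad2* in 96.0%, 4 of 25 cells had *Crhbp*, at 122 to 1287 CPM. Among PVH clusters, cluster 9 had it in 3 of 25 cells, cluster 8 in 4 of 42 and cluster 7 in 3 of 35. It was not called in cluster 8 (edgeR log2 fold change 2.20, SE 1.79, adjusted p = 0.735) or cluster 9 (2.40, SE 2.54, edgeR adjusted p = 0.704). In cluster 1, 0 of 221 cells held it, and in cluster 10, 0 of 62.

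Without the filter on low counts, 3 more members were called in cluster 1. *Crhr1* was higher there (log2 fold change 4.71, SE 1.33, edgeR adjusted p = 0.0301, higher in 8 of 10 plates), and *Crhbp* was lower on 10 of 10 plates (edgeR adjusted p = 0.00319). *Ucn3*, with 1 UMI in cluster 1, was also called lower (edgeR adjusted p = 0.0212). Of the 517 UMIs of *Ucn3*, 321 were in 1 cell of cluster 15, so this call rests on few cells. *Crhbp* had 0 UMIs in cluster 1 and was detected in other PVH cells on all 10 plates. Its direction on each plate could therefore not come out otherwise. In that fit 2.48% of 25952 genes were called higher and 3.33% lower.

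**Figure D4:**
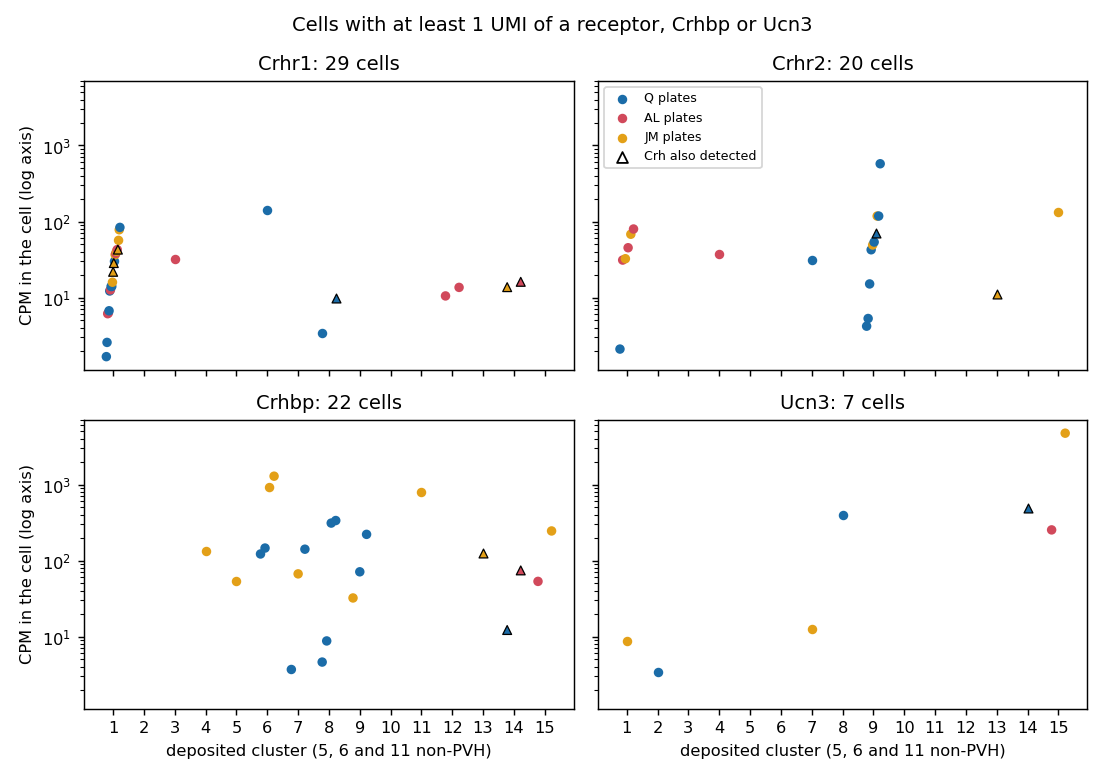
Each cell with at least 1 UMI of *Crhr1*, *Crhr2*, *Crhbp* or *Ucn3*, by cluster and by its CPM on a log axis, coloured by plate-name prefix, with triangles for cells in which *Crh* was also detected. *Crhr1* cells gather in cluster 1 and *Crhr2* cells in cluster 9, *Crhbp* cells scatter over 10 clusters, and 1 of 7 *Ucn3* cells stands at 4733 CPM.

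Members rarely met in a cell. Of 706 cells, 483 held none of the 7 genes, 209 held 1, 13 held 2 and 1 held 3. No cell held both receptors, and no cell held *Crhbp* with either receptor. *Crh* was found together with *Crhr1* in 6 cells, with *Crhbp* in 3, with *Crhr2* in 2 and with *Ucn3* and *Ucn* in 1 each. The cell with 3 members, of cluster 13, held *Crh*, *Ucn* and *Crhbp*.

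Whether cells with *Crh* at 100 CPM or more held another member more or less often was compared within the 10 plates. The shares below are means of the plate shares. Over all plates, 105 cells had *Crh* at this level, of which 3 held *Crhr1*, 1 *Crhr2* and 2 *Crhbp*. *Crhr1* was in 2.86% of such cells and 4.40% of the other PVH-cluster cells, a difference of -1.54 points (SD 6.53, n = 10 plates; exact permutation p = 0.477). *Crhr2* was in 1.43% and 3.50% (difference -2.07 points, SD 6.32, n = 10, lower on 9 plates; exact permutation p = 0.338). For *Crhbp* the shares were 2.54% and 2.56% (SD of the difference 6.23, n = 10; exact permutation p = 0.998). With a limit of 1000 CPM for *Crh*, which 6 plates allowed, *Crhbp* was 2.77 points lower (0% against 2.77%, SD 1.21, 6 of 6 plates) and *Crhr2* 4.56 points lower (0% against 4.56%, SD 2.53, 6 of 6 plates), each with an exact permutation p of 0.0312, the smallest possible, and an adjusted p of 0.0938. None of the 6 other members passed after adjustment over the 6, where the smallest unadjusted exact permutation p was 0.0625, for *Ucn3*. Where at least 3 UMIs counted as detection, *Crhr2* was 3.05 points lower in *Crh* cells and passed (exact permutation, adjusted p = 0.0469). In the comparisons at 1000 CPM and in this one, 0% of *Crh* cells held the gene. Few *Crh* cells lay on each plate, so on a single plate 0% is likely for so rare a gene even at an equal share. Such a plate counts as lower, so plates can agree in direction without a lower share. These tests therefore cannot show that the share was lower.

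Lists of genes that work with CRH were read in the same fits. In these, cluster 1 weighs heavily among the other PVH cells. It holds 221 of the 664 PVH-cluster cells, at a median of 183836 UMIs against 107572 in cluster 10 and 102969 in cluster 14. Which of the other clusters set a difference was not tested. A gene near 0 in a cluster can pass the filter through the other PVH cells alone, and can then be called only lower. Over all genes the median log2 fold change was -0.64 in cluster 10 and -0.39 in cluster 14, and list medians are to be read against these. In cluster 10, 0.913% of 10849 genes were called higher and 3.55% lower, and in cluster 14, 1.42% of 10699 higher and 3.98% lower. With DESeq2 the shares in cluster 10 were 2.39% and 10.3%, and in cluster 13 edgeR called 0.262% of 10672 genes higher and 1.13% lower. Beside *Crh*, 9 list genes were called in cluster 10, of which 2 were higher.

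Of the glucocorticoid feedback list, 9 of 11 genes were tested in each cluster. In cluster 10 only *Nr3c1*, the glucocorticoid receptor, was called, and it was higher. It had a mean of 518 ± 186 CPM (SD, n = 7 plates), while the other PVH cells had 42.8 ± 19.0, was detected in 98.4% of cells against 24.3%, and rose in 7 of 7 plates (log2 fold change 3.44, SE 0.26, edgeR adjusted p = 2.41e-08). The list median was 1.01. In cluster 14 *Nr3c1* was at 33.4 CPM against 60.2 and was not called (edgeR adjusted p = 0.187). The difference between clusters 10 and 14 was 4.29 (SE 1.00, edgeR adjusted p = 0.00482) and passed in all 19 alternatives. The phosphatase gene *Dusp1*, which glucocorticoids induce in many cells, was lower in cluster 14 (18.9 ± 18.2 against 55.3 ± 44.6 CPM, SD, n = 8; log2 fold change -1.96, SE 0.51, edgeR adjusted p = 0.0334), a call that was lost in 9 alternatives, among them those without plate Q5, Q7, AL5, JM6 or JM8 (-2.03 to -1.86, edgeR adjusted p of 0.0574 to 0.101). It was higher in cluster 10 than in cluster 14 (2.60, SE 0.64, edgeR adjusted p = 0.00632), a call that was lost on Q plates alone and on AL and JM plates alone.

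The 12 genes for peptide processing and secretion were all tested. In cluster 10, 1 was higher and 2 were lower (list median 0.02), and in cluster 14, 1 was higher and 6 were lower (list median -0.57). *Scg2*, which encodes the granin secretogranin II, was at 5021 ± 2097 CPM in cluster 10 against 2152 ± 705 (SD, n = 7; log2 fold change 1.05, SE 0.12, edgeR adjusted p = 1.53e-05). *Pam*, the enzyme that amidates CRH and other peptides, was lower in both clusters, at 240 ± 96.5 against 514 ± 103 CPM in cluster 10 (SD, n = 7; edgeR adjusted p = 4.01e-04) and 122 ± 74.1 against 539 ± 101 in cluster 14 (SD, n = 8; edgeR adjusted p = 3.21e-06). *Cadps2*, a priming factor of dense-core vesicles, was lower in cluster 10 (11.4 ± 17.2 against 104 ± 31.3 CPM, SD, n = 7; edgeR adjusted p = 0.00335). *Pcsk1*, the prohormone convertase 1/3 gene, was lower in cluster 14 (26.5 ± 36.0 against 171 ± 25.7 CPM, SD, n = 8; edgeR adjusted p = 0.00192). The granin *Chga* was the 1 gene of this list that was higher there (311 ± 184 against 138 ± 48.3 CPM, SD, n = 8; edgeR adjusted p = 0.00979).

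The cAMP pathway, through which both CRH receptors signal, had no gene called in cluster 10 or in cluster 14 against the other PVH cells. Of its 23 genes 22 were tested in cluster 10 (median -0.60) and 23 in cluster 14 (median -0.13). Between clusters, *Prkar1b* and *Prkar1a*, genes for regulatory subunits of protein kinase A, were lower in cluster 10 than in cluster 14 (-0.52, SE 0.15, edgeR adjusted p = 0.0252) and than in cluster 13 (-0.95, SE 0.24, edgeR adjusted p = 0.0361), respectively. Of the 10 genes for *Crh* transcription and the development of these neurons, 6 were tested in cluster 10 without a call (median -0.04) and 5 in cluster 14 (median -0.95). There *Pou3f2*, a POU-domain factor, was lower (112 ± 75.7 against 188 ± 47.1 CPM, SD, n = 8; log2 fold change -1.05, SE 0.27, edgeR adjusted p = 0.0306), a call that was lost in 6 alternatives, among them those without plate Q5, AL5, JM5, JM6 or JM7 (-1.05 to -0.92, edgeR adjusted p of 0.0686 to 0.112). *Otp*, a homeobox gene of these lineages, was at 625 against 605 CPM in cluster 10 and was not called (edgeR adjusted p = 0.399). Of the same list, *Nr4a1* and *Arnt2* were higher in cluster 10 than in cluster 14. Their differences were 5.88 (SE 1.52, edgeR adjusted p = 0.0111) and 1.45 (SE 0.40, edgeR adjusted p = 0.0198).

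Of 17 receptors for other inputs, 7 passed the filter in cluster 10, where 2 were called lower and none higher (median -3.56). *Npy1r*, the neuropeptide Y receptor Y1 gene, was at 0.131 ± 0.224 CPM against 15.3 ± 6.57 (SD, n = 7; edgeR adjusted p = 0.0107) and *Avpr1a*, the vasopressin V1a receptor gene, at 0.276 ± 0.472 against 11.7 ± 5.83 (SD, n = 7; edgeR adjusted p = 0.0226). The *Avpr1a* call was lost in 10 alternatives, among them those without plate Q5, Q8, AL5, JM6 or JM8 (-5.12 to -4.82, edgeR adjusted p of 0.0522 to 0.0625). Both genes were near 0 in cluster 10 and could pass the filter through the other PVH cells alone. Their lower calls, and in part the list median, were therefore largely set in advance. The adrenergic receptor gene *Adra1b*, named after its values were seen, stood at 20.5 ± 17.3 against 1.07 ± 1.49 CPM in cluster 10 (SD, n = 7, higher on 7 of 7 plates) and was just short of a call (edgeR adjusted p = 0.0502). In cluster 14, 5 were tested (median -2.03). *Npy1r* was lower (1.32 ± 3.28 against 13.2 ± 6.40 CPM, SD, n = 8; edgeR adjusted p = 0.0329). That call was lost in 7 alternatives, among them those without plate Q7, AL6, JM5, JM6, JM7 or JM8 (-4.55 to -4.12, edgeR adjusted p of 0.0577 to 0.0814). *Npy1r* was low in cluster 14 too, so the same limit holds for its call there. The serotonin receptor gene *Htr2c*, also named after its values were seen, was at 62.6 ± 49.8 against 11.1 ± 14.4 CPM there (SD, n = 8, higher on 6 of 8 plates) and was not called (edgeR adjusted p = 0.0555).

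**Figure D5:**
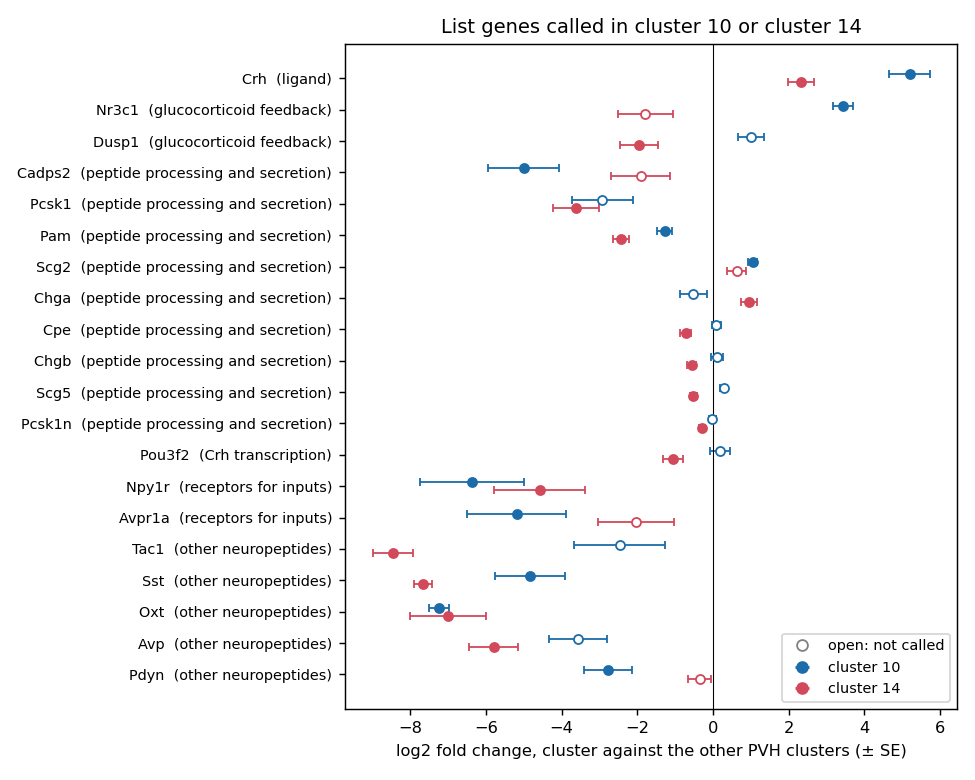
Log2 fold change (± SE) of the list genes called in cluster 10 (blue) or cluster 14 (red) against the other PVH clusters, filled where called and open where not, with the list in parentheses. *Crh* lies right of 0 in both clusters and *Nr3c1* is called in cluster 10 alone, at 3.44, while *Npy1r*, *Sst* and *Oxt* lie left of 0 in both.

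Of 14 genes for other neuropeptides 10 were tested in each cluster, and 3 were called lower in cluster 10 (median -2.62) and 4 in cluster 14 (median -4.05), with none called higher. Among those without a call, *Penk* was at 201 ± 265 against 107 ± 87.6 CPM in cluster 10 (SD, n = 7) and 1274 ± 984 against 87.0 ± 72.2 in cluster 14 (SD, n = 8; edgeR adjusted p = 0.921 and 0.141). In cluster 10 the genes called lower were *Oxt* (log2 fold change -7.23, SE 0.27, edgeR adjusted p = 2.12e-05), *Sst* (-4.83, SE 0.92, edgeR adjusted p = 0.0424) and *Pdyn* (-2.78, SE 0.63, edgeR adjusted p = 0.0146). The *Sst* call was lost in 12 alternatives, among them those without plate Q6, Q7, Q8, AL5, JM6 or JM8 (-5.10 to -4.50, edgeR adjusted p of 0.0908 to 0.113). The *Pdyn* call was lost in 5, among them those without plate Q6 or Q8 (-2.64 and -2.79, edgeR adjusted p = 0.150 and 0.117). In cluster 14 the largest were *Tac1* (-8.46, SE 0.53, edgeR adjusted p = 1.14e-07), *Sst* (-7.67, SE 0.24, edgeR adjusted p = 5.77e-12) and *Oxt* (-7.00, SE 1.01, edgeR adjusted p = 0.00872). The paper names *Oxt*, *Sst* and *Pdyn* among the marker genes of its clusters. The other PVH cells include the clusters that such peptides mark. Lower calls of these genes, and list medians below 0, were therefore largely set in advance.

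Other peptides in the cells of the *Crh* clusters are given as counts of cells, with *Crh*-negative cells included. *Avp*, which parvocellular CRH neurons can also release, was at 100 CPM or more in 52 of 62 cells in cluster 10, against 18 of 57 in cluster 14 and 1 of 16 in cluster 13. The cell medians were 459, 52.4 and 24.2 CPM. *Oxt*, called lower in cluster 10, also reached 100 CPM in 50 of the 62 cells there. This limit alone therefore does not set apart cells that make such a peptide. Over plates, *Avp* in cluster 10 was at 2097 ± 2814 CPM against 14362 ± 9579 in the other PVH cells (SD, n = 7). It was higher on 1 of 7 plates and not called (log2 fold change -3.57, SE 0.77, edgeR adjusted p = 0.0600). Across all PVH clusters, *Avp* was at 100 CPM or more in 60 of 105 cells with *Crh* at 100 CPM or more (57.1%, median 145 CPM) and in 327 of the 559 other cells (58.5%, median 157 CPM), 96.1% of which had at least 1 UMI of it. *Avp* was named after its values were seen, and its difference between clusters 10 and 14 (3.00, SE 0.87, edgeR adjusted p = 0.0343) was lost in 8 alternatives, among them those without plate Q7, AL5, JM6 or JM8 (1.98 to 3.05, edgeR adjusted p of 0.0665 to 0.279). *Pdyn* was at 100 CPM or more in 15 of 16 cells in cluster 13, against 32 of 57 in cluster 14 and 13 of 62 in cluster 10. *Cartpt* reached that level in 14 of 16 cells in cluster 13, against 15 of 62 in cluster 10 and 3 of 57 in cluster 14. *Penk* reached it in 22 of 57 cells in cluster 14, against 10 of 62 in cluster 10 and 0 of 16 in cluster 13. Cells are not replicates, and over plates 1 of the 9 tests of these 3 genes between pairs of clusters gave a call, *Cartpt* lower in cluster 14 than in cluster 13 (-5.85, SE 1.45, edgeR adjusted p = 0.0419). *Pdyn* gave edgeR adjusted p = 0.150 for cluster 10 against 14, 0.296 for 10 against 13 and 0.980 for 14 against 13. *Penk* gave edgeR adjusted p = 0.216, 0.279 and 0.0800 in the same order, and *Cartpt* 0.541 and 0.213 in the other 2. *Gad2* was detected in 15 of 16 cells in cluster 13, against 15 of 62 in cluster 10 and 15 of 57 in cluster 14, and *Slc17a6*, which encodes the glutamate transporter VGLUT2, in 14, 39 and 55 cells of the same clusters. *Slc17a6* was higher in cluster 14 than in the other PVH cells (log2 fold change 0.62, SE 0.16, edgeR adjusted p = 0.0310), a call that was lost in 8 alternatives, among them those without plate AL6, JM5, JM6, JM7 or JM8 (0.54 to 0.65, edgeR adjusted p of 0.0508 to 0.111). *Slc32a1*, the vesicular GABA transporter gene, had no UMI in clusters 10, 13 and 14.

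Genes with the most similar pattern were sought among 13110 genes, by Pearson's r of the mean log2(CPM + 1) over 15 clusters, as a description. For *Crh* they were *Rgs6* (0.858), *Sct* (0.857), *Malt1* (0.848), *Ttyh2* (0.752) and *Atp6v1c2* (0.747), of which *Rgs6* was detected in 64 cells and *Sct*, the gene of secretin, in 44, while *Ttyh2* was in 3. For *Crhr1* they were *Me2* (0.837), *B3galt1* (0.826), *Oprk1* (0.80), *Dnah9* (0.798) and *Lef1* (0.781). Cluster 6, which is non-PVH, was the top cluster of *Me2*, *B3galt1*, *Oprk1* and *Dnah9*. There *Crhr1* rested on 1 of 25 cells, with 15 UMIs. For *Crhbp* they were *Kcnj3* (0.895), *Ftl2-ps* (0.884), *Grik3* (0.850), *Pcm1* (0.848) and *Gm43359* (0.835). For *Crhr2* the 5 nearest genes (*Stc2*, *Cdkn2b*, *Gm36974*, *Gm29994* and *Gm45060*) all gave 0.988 and were detected in 1 or 2 cells each, so that order means little. The clusters share plates and differ in size and depth.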

How the data were processed

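Single cells picked by hand from the PVH were lysed in plates of 96 wells, reverse transcribed with barcoded primers (Smart-SCRB) and amplified as 1 pool per plate. The authors deposited raw, unnormalized UMI counts and a total UMI score per cell, which equalled the counts after a control-well level was subtracted. The sources used here do not name the control wells. They were taken as the 4 wells per plate whose subtraction gave this score. The counts were given per gene and well, and the score in a table of the 706 kept cells with plate, batch name and cluster. Prefixes were read here from the plate names. The submitters' processing notes name Trimmomatic 0.36, STAR 2.5.3a and the build GRCm38.p5. The annotation, and whether UMIs were corrected for sequencing errors, are not given in the sources used here, so several UMIs need not be several molecules. No 2 cells had identical counts. Spike-in counts and well barcodes were not used here.

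Members and gene lists were chosen with earlier results of these data known. Groups were the deposited clusters, with the plate as replicate, and animals per plate are not given in the sources used here, so p-values measure only the spread between plates, which may be technical. The study's legends set clusters 5, 6 and 11 apart as non-PVH. UMIs were summed per plate and cluster (at least 3 cells, at least 3 plates) and tested against the other PVH-cluster cells of the same plate with edgeR 4.0.16 (TMM, filterByExpr, quasi-likelihood test, Benjamini-Hochberg over all genes, adjusted p of 0.05 or less) under R 4.3.3. The plate number pairs both sides by construction, since both come from the same pool, and was the block. Clusters 10, 13 and 14 were compared in 1 fit of all PVH clusters. SE is the fold change over the root of F.

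Shares carry exact Clopper-Pearson intervals at 95%, and a count of 0 allows 3 counts, both for counting error only. Plate differences were tested by exact two-sided permutation (scipy 1.17.1, Python 3.11.15), checked on simulated data. In simulated sums for cluster 10 over 10138 genes, edgeR recovered 49% of 100 genes made 8 times higher and 61% of 100 made 32 times higher, with 4 false calls, and DESeq2 1.42.0 87% and 94%, with 94. Alternatives were DESeq2, its size factors, no filter, no block, sums of at least 5 cells, cells thinned to 63046 UMIs (71 shallower cells left out), the control-well level subtracted, Q plates or AL and JM plates alone, each plate left out, and other detection limits.

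Values are given for the 7 members and for up to 3 genes per list with the largest fold change among those called in cluster 10 or 14. For 4 members the 5 most similar genes are named, among those with at least 10 CPM in 1 or more clusters. *Otp*, *Nr4a1*, *Arnt2*, *Adra1b*, *Htr2c*, *Prkar1a*, *Prkar1b*, the peptides given as cell counts and *Gad2* were named after their values were seen.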

Additional observations from a re-analysis of the deposited data

Results flagged for a closer look

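Plate values of *Crh* stood apart from the others of their cluster in 8 of the clusters where it was low: 75.3 CPM on plate JM5 in cluster 1, 19.3 on Q7 in cluster 2, 4.53 on JM7 in cluster 3, 101 on JM5 in cluster 4, 1.13 on Q5 in cluster 6, 2.33 on Q8 in cluster 8, 0.584 on Q7 in cluster 9 and 44.4 on AL6 in cluster 12. *Crhbp* stood apart at 833 CPM on plate JM6 in cluster 6. Chance would flag about 1 in 20 groups of normally distributed values, and 9 of 16 were flagged. Most of these groups had 0 UMIs on several plates, so that rate does not apply to them and few cells set the highest value.

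The 254 wells outside the authors' cell table also held members. Of 117 such wells with at least 10000 UMIs, outside the control columns, 28 (23.9%, exact 95% interval 16.5% to 32.7%) had *Crh* at 100 CPM or more, against 105 of 706 kept cells (14.9%, 12.3% to 17.7%). Within plates the difference was 10.4 points (SD 19.7, n = 9 plates, higher on 6; exact two-sided permutation p = 0.156), a comparison chosen after the values were seen. These wells held at most 50113 UMIs, with a median of 39283, against a lowest kept cell of 50646. *Ucn3* was in 2 of the wells outside the table and the control columns, with 404 UMIs in all, of which 364 were in 1 well. The 40 control wells had 0 UMIs of *Ucn3*.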

How the results depend on the processing

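A transcript can be missed in a cell at these depths, AL and JM cells were shallower than Q cells, and cluster 13 had 3 plates. After thinning, *Crh* was detected in 112 of 600 PVH-cluster cells against 154 of 664. The count of member calls over the 12 clusters, 9, ranged from 6 to 12 in all alternatives (8 to 10 without 1 plate). *Crh* in cluster 10 kept its direction and call in all 19, at 4.72 to 5.61 (4.81 to 5.34 without 1 plate). *Crh* in cluster 14 passed in 17 of 18 (2.05 to 2.57 without 1 plate) but not after thinning (2.82, edgeR adjusted p = 0.212), and on the Q plates alone it could not be fitted, with 2 plates. Without the replicate block that pairs cells of a plate, the fold changes were 4.97 and 1.99 and both passed.

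*Crh* in cluster 10 against cluster 14 kept its direction but lost its call with DESeq2 (2.61), without the replicate block (1.74), with sums of at least 5 cells (2.99), after thinning (2.41), after subtraction (2.52), on Q plates (2.25) and on AL and JM plates (2.47). Without 1 plate it was 2.29 to 2.83 (edgeR adjusted p from 0.0442 to 0.112), and it passed only without plate Q8. Cluster 10 against cluster 13 passed without the filter (3.58, edgeR adjusted p = 1.30e-07) and otherwise not (2.61 to 7.60 without 1 plate), and sums of at least 5 cells and the Q plates alone gave no value. List genes called in cluster 10 numbered 24 with DESeq2 against 9, where over all genes DESeq2 called 259 higher and 1118 lower against 99 and 385 (list genes 6 to 11 without 1 plate, 6 without plate Q8). No called list gene changed direction under the other scaling.

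The difference for *Crhbp* between *Crh* cells and other cells was -2.77 points with *Crh* at 1000 CPM or more, and changed sign with at least 3 UMIs (0.438 points), on AL and JM plates (0.156) and in 8 of 10 cases without 1 plate (-1.61 to 0.508, with the reversed values 0.508, 0.326, 0.158, 0.150, 0.264, 0.197, 0.315 and 0.452). That for *Crhr1* turned to 0.0658 points on AL and JM plates (-3.01 to -0.813 without 1 plate). That for *Crhr2* passed with at least 3 UMIs (-3.05) and without plate JM5 (-3.89, exact permutation, adjusted p = 0.0234), from -3.89 to -1.29 over the plates left out, and was -4.56 with *Crh* at 1000 CPM or more (exact permutation, adjusted p = 0.0938). In these 3 settings 0% of *Crh* cells held *Crhr2*. On a single plate with few such cells that is likely for a rare gene even at an equal share. These settings therefore cannot show a lower share. Single named genes kept direction in every alternative, and 549 of their values kept their side of the threshold, 77 lost a call and 6 gained one. The causes were not tested.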

Other observations

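Cluster 13, the smallest of the 3 clusters that carried most *Crh*, had pathway genes called over 3 plates with 3 or 4 cells each. With any of those plates left out it could not be fitted. Of 12 genes for peptide processing and secretion, 3 were higher and 3 lower, where edgeR called 0.262% of 10672 genes higher and 1.13% lower. *Scg2* stood at 6191 ± 1390 CPM while the other PVH cells there had 1065 ± 641 (SD, n = 3; log2 fold change 2.46, SE 0.14, edgeR adjusted p = 4.42e-20), and *Chgb*, chromogranin B, at 1041 ± 102 against 391 ± 10.5 (SD, n = 3; edgeR adjusted p = 2.90e-05). *Pcsk2*, the prohormone convertase 2 gene, was at 417 ± 191 against 134 ± 16.3 CPM (SD, n = 3; edgeR adjusted p = 0.00751). The lower genes were *Pcsk1n*, which encodes proSAAS (1307 ± 376 against 2658 ± 529 CPM, SD, n = 3; edgeR adjusted p = 3.64e-10), *Cpe*, the carboxypeptidase E gene (669 ± 208 against 1363 ± 50.2 CPM, SD, n = 3; edgeR adjusted p = 3.14e-07), and *Cadps2*, with 0 UMIs in the sums of all 3 plates against 149 ± 21.8 CPM (SD, n = 3; edgeR adjusted p = 1.19e-08). Of 23 genes of the cAMP pathway, *Crem*, a cAMP-responsive transcription factor gene, was higher (190 ± 129 against 29.8 ± 7.15 CPM, SD, n = 3; edgeR adjusted p = 0.0162) and 2 were lower: *Pde4b*, a cAMP phosphodiesterase gene, at 31.6 ± 39.7 against 146 ± 14.3 CPM (SD, n = 3; edgeR adjusted p = 0.00751), and *Adcy2*, an adenylyl cyclase gene, at 0 against 59.7 ± 11.1 CPM (SD, n = 3; edgeR adjusted p = 0.0156). *Cadps2* and *Adcy2*, at 0 in cluster 13, passed the filter through the other PVH cells alone. For them only a lower call was possible. The glucocorticoid feedback list gave no call in 8 genes tested. All were chosen with their values known, and the cluster holds 16 cells.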
